A study of Mus musculus with 9 samples.

Results

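The thioredoxin-interacting protein gene Txnip, the 4 Arrdc genes that encode its closest relatives, and Mlxip and Mlx, the factor pair that carries the glucose signal to Txnip, were followed through 9 bulk RNA libraries of mouse CD4+ T cells. They were taken by gene symbol, as 7 of the 14912 rows of the deposited table of normalised counts, and all 7 had enough signal for the fit across genes. The genes were put together with earlier results of these libraries known, so their own values are given as a description without p-values.

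All cells came from B6.Cg-Foxp3tm2(EGFP)Tch/J mice, hemizygous for an allele in which the locus of Foxp3, the master transcription factor of regulatory T cells (Treg cells), also makes eGFP. The first group, mTO-iTreg (n = 3 libraries), comprised cells sorted for eGFP on day 5 after they had been cultured together with organoids, small cultures of epithelium, from mouse colorectal tumours, with IL-2 at 20 U/ml and stimulating antibodies against CD3 and CD28. The second, TGFβ-iTreg (n = 3), comprised cells likewise sorted for eGFP on day 5, but cultured without organoids in TGFβ at 10 ng/ml and IL-2 at 300 U/ml, with these antibodies at 1 µg/ml as in the co-culture. The third, day 0 (n = 3), comprised CD4+ cells without eGFP, taken before any culture. Each contrast with day 0 therefore joins time in culture, antibody stimulation, cytokines and the eGFP sort, which cannot be told apart. That of mTO-iTreg cells adds the organoids. Between the iTreg groups, organoids, TGFβ and the IL-2 dose differ together and cannot be told apart either. The mTO-iTreg libraries are also named in another style in the deposited table than the other libraries. Whether this marks a separate batch was not tested. The sources used here do not give the glucose content of the T cell media, the number of organoid lines or whether the 3 libraries of a group came from separate animals or cultures, so errors measure only the spread between these libraries.

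The alpha-arrestins are adaptor proteins that bring membrane proteins to ubiquitin ligases of the Nedd4 family. Txnip binds and inhibits thioredoxin and promotes the internalisation of glucose transporters, so that it restrains glucose uptake, and Arrdc4 does the same for glucose uptake. Both genes are classical targets of MondoA (encoded by Mlxip) and ChREBP (encoded by Mlxipl), which pair with Mlx, sense glucose phosphorylated inside the cell and bind carbohydrate response elements, pairs of E-boxes set a short distance apart. In T cells, Txnip is known as a gene of resting cells that is shut down when antigen receptor signalling and Myc start growth.

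A library held 2078223 to 9944952 counts, and a single count was worth 0.494 to 2.69 normalised counts. The T cell genes of the marker list summed to 19040 to 23150 normalised counts in the mTO-iTreg libraries, 16380 to 17930 in the TGFβ-iTreg libraries and 26450 to 28730 on day 0, with 7 of 10 listed genes in the table. The CD4 gene itself lay between 2866 and 3533 in mTO-iTreg, 969.8 and 1043 in TGFβ-iTreg, and 2196 and 2812 in day 0 libraries. The sorted reporter eGFP had 304.9, 461.5 and 261.7 normalised counts in mTO-iTreg libraries, 587.8, 674.1 and 695.1 in TGFβ-iTreg libraries and 26.3, 51.1 and 86.5 on day 0. Foxp3 had 69.6, 37.2 and 81.0 in mTO-iTreg libraries, 19.7, 14.9 and 14.8 in TGFβ-iTreg libraries and 8.77, 0 and 2.11 on day 0, where 0 counts allow up to 8.06. Both were higher in every iTreg library than in every day 0 library, but between the iTreg groups eGFP was higher in all TGFβ-iTreg libraries and Foxp3 in all mTO-iTreg libraries. Levels below are normalised counts, as mean ± SD over 3 libraries where a group is summarised. The ratio of 2 groups is that of their means, and a log2 difference with its standard error (SE) comes from the limma fit to log2(normalised count + 1) over all 9 libraries.

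Txnip was higher in every iTreg library than in every day 0 library. It had 8507, 7082 and 9851 normalised counts in mTO-iTreg replicates 1, 2 and 3, 8127, 7788 and 6631 in TGFβ-iTreg replicates 1, 2 and 3, and 3611, 4314 and 4192 in day 0 replicates 1, 2 and 3. The lowest iTreg library was thus above the highest day 0 library, as it was for 25.8% of all genes tested in the mTO-iTreg and 18.0% in the TGFβ-iTreg contrast, while the libraries of the 2 iTreg groups overlapped. The group means were 8480 ± 1385 in mTO-iTreg, 7515 ± 784 in TGFβ-iTreg and 4039 ± 376 in day 0 cells. That is 2.10 times the day 0 level in mTO-iTreg cells and 1.86 times in TGFβ-iTreg cells, or log2 differences of 1.06 for mTO-iTreg and 0.89 for TGFβ-iTreg cells (SE 0.13 each). The 2 iTreg groups, which come next to each other in this order, differed by 0.17 on the log2 scale (SE 0.13), within the spread of their libraries. As a share of all counts in a library, Txnip took 0.143 to 0.193% in mTO-iTreg cells, 0.135 to 0.159% in TGFβ-iTreg cells and 0.0600 to 0.0746% on day 0. In bulk RNA, fewer cells with the transcript and less transcript per cell cannot be told apart.

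The mouse gene lies on chromosome 3 at 96557957 to 96561883 on the plus strand (GENCODE M21, GRCm38). The 250 bases before its start, at chr3:96557707-96557956, are shown from RefSeq (GRCm38.p6), because they hold the pair of E-box half-sites through which glucose is known to act on this gene. Capitals mark the pair, 2 copies of CACG in the same direction with 7 bases between them, at -85 to -71 from the start (chr3:96557872-96557886).
Txnip: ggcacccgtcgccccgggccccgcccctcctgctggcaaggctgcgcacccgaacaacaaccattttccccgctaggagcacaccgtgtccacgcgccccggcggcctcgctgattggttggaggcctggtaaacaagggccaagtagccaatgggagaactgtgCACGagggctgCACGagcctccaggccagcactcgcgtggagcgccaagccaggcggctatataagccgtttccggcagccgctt

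Arrdc4 showed the widest separation of the 7 genes between the iTreg groups and day 0. Its levels were 358, 269 and 538 normalised counts in mTO-iTreg replicates 1, 2 and 3, 280.4, 120.0 and 46.9 in TGFβ-iTreg replicates 1, 2 and 3, and 7.02, 0 and 1.05 in day 0 replicates 1, 2 and 3. The day 0 values rest on 4, 0 and 1 counts, and 0 counts in replicate 2 allow a level of up to 8.06 normalised counts (3 counts). All 6 iTreg libraries stood above all 3 day 0 libraries. Such a separation from day 0 was found for 25.8% of all genes tested in the mTO-iTreg and 18.0% in the TGFβ-iTreg contrast, and the share with both was not counted. The means were 389 ± 137 in mTO-iTreg cells, 149 ± 119 in TGFβ-iTreg cells and 2.69 ± 3.78 on day 0.

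Because so few counts underlie the day 0 level, the Arrdc4 ratio is also given with a counting interval. Summed over libraries, 1769 counts in mTO-iTreg cells against 5 on day 0 gave a depth-adjusted ratio of 146 (95% exact interval 62.4 to 450), and 386 counts in TGFβ-iTreg cells against the same 5 gave a ratio of 37.4 (15.9 to 116). These intervals cover counting error only, not the spread between libraries. The sums give deeper libraries more weight, and the ratios of group means were 144 in mTO-iTreg and 55.4 in TGFβ-iTreg cells. On the log2(normalised count + 1) scale the differences from day 0 were 7.20 in mTO-iTreg and 5.53 in TGFβ-iTreg cells (SE 0.73 each). Over 22 alternative settings they ranged over 5.73 to 8.03 in mTO-iTreg and 4.11 to 6.36 in TGFβ-iTreg cells. Leaving out day 0 replicate 1 gave 8.03 in mTO-iTreg and 6.36 in TGFβ-iTreg cells, and leaving out day 0 replicate 2 gave 6.53 in mTO-iTreg and 4.86 in TGFβ-iTreg cells. The TGFβ-iTreg difference was also 4.90 without TGFβ-iTreg replicate 1 and 6.18 without replicate 3, and it missed the threshold of the fit under limma-voom on recovered counts (5.10). Between the 2 iTreg groups the mean was 2.61 times higher in mTO-iTreg cells, but TGFβ-iTreg replicate 1 (280.4) lay above mTO-iTreg replicate 2 (269), so the groups overlapped (log2 difference 1.67, SE 0.73). That difference was 2.30 without TGFβ-iTreg replicate 1 and 1.02 without replicate 3, and it passed the threshold under 6 of the 22 settings, among them leaving out TGFβ-iTreg replicate 1 or day 0 replicate 1. The TGFβ-iTreg libraries were the most uneven, with replicate 1 highest and replicate 3 lowest. Their depths also differed, at 2078223 counts for replicate 1, 7222895 for replicate 2 and 9944952 for replicate 3, and the part of depth in the spread was not tested.

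**Figure D1:**
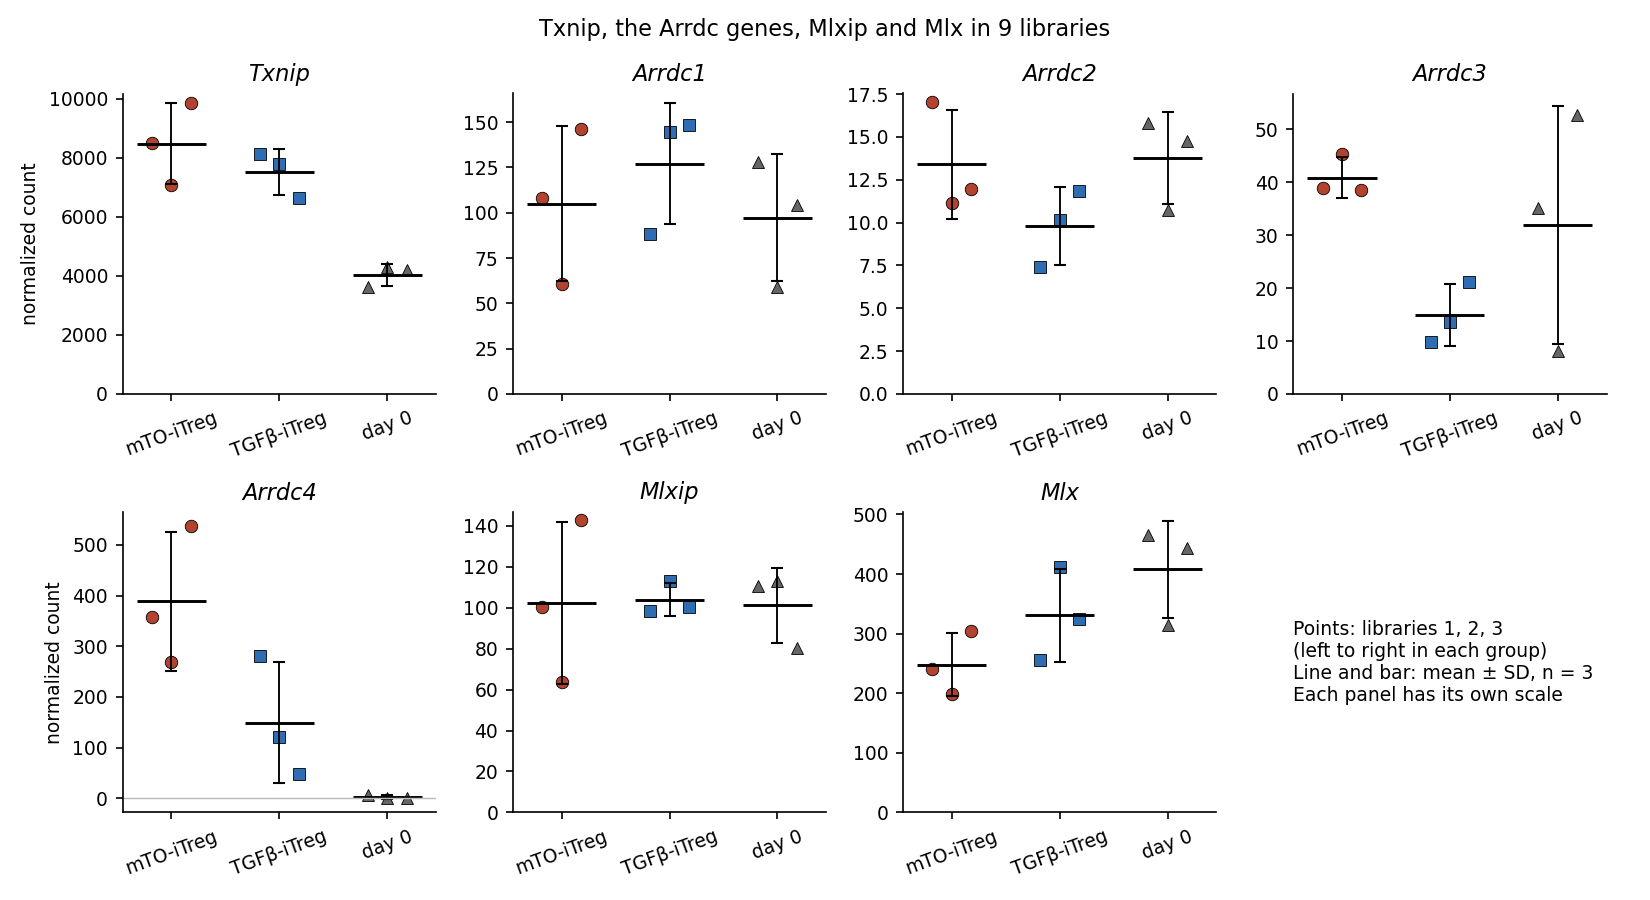
Normalised counts of the 7 genes in each library (points, replicates 1 to 3 from left to right within a group) with the mean and SD of each group (line and bar, n = 3), each panel on its own linear scale. Txnip and Arrdc4 lie higher in all 6 iTreg libraries than in the day 0 libraries, Mlx lies lower in the mTO-iTreg libraries than on day 0, and Mlxip has nearly level means in the 3 groups.

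Arrdc4 lies on the minus strand of chromosome 7 at 68736995 to 68749241. Its upstream 250 bases (chr7:68749239-68749488, minus strand) are shown to set beside those of Txnip, since the same factors are known to act on both genes. They hold no pair of CACG half-sites at E-box spacing. They hold a single CACGTG, in capitals, at -193 to -188.
Arrdc4: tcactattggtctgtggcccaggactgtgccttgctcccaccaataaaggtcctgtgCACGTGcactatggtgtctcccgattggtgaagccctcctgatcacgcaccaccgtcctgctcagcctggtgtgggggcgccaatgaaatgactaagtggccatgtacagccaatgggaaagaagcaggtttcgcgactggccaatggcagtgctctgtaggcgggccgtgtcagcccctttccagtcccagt

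The other alpha-arrestins did not lie higher in all iTreg than in all day 0 libraries. For Arrdc2 and Arrdc3 the SEs of 0.59 and 0.64 were wide beside the Txnip difference of 1.06 in mTO-iTreg cells. The SE of 0.38 for Arrdc1 was wide beside the Txnip difference of 0.89 in TGFβ-iTreg cells. Rises of these sizes could therefore be missed for these genes. Arrdc1, an adaptor known in human cells to bud vesicles from the plasma membrane through the ESCRT protein Tsg101, lies on chromosome 2 at 24925352 to 24935252 (minus strand). It had 108, 60.8 and 146 normalised counts in mTO-iTreg replicates 1, 2 and 3, 88.5, 144 and 149 in TGFβ-iTreg replicates 1, 2 and 3, and 128, 59.1 and 104 in day 0 replicates 1, 2 and 3. The 3 groups overlapped, and the means of 105 ± 42.8 in mTO-iTreg, 127 ± 33.6 in TGFβ-iTreg and 97.2 ± 35.0 in day 0 cells differed by no more than 0.42 on the log2 scale (SE 0.38). In the order TGFβ-iTreg, mTO-iTreg, day 0, no neighbours differed beyond their spread.

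Arrdc2, a relative of Arrdc3 with a less studied role, was the most weakly read of the 7. On chromosome 8 at 70835129 to 70839720 (minus strand), it stood at 17.1, 11.2 and 11.96 normalised counts in mTO-iTreg replicates 1, 2 and 3, 7.38, 10.2 and 11.9 in TGFβ-iTreg replicates 1, 2 and 3, and 15.8, 10.8 and 14.8 in day 0 replicates 1, 2 and 3. These came from 61 counts in mTO-iTreg, 42 in TGFβ-iTreg and 27 in day 0 libraries. The groups overlapped, and all 3 log2 differences lay between -0.46 and 0.41 with an SE of 0.59. Differences of this size were not detectable at this depth.

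Arrdc3, which is known to target the β2-adrenergic receptor and integrin β4 for degradation, was the 1 gene whose libraries separated the 2 iTreg groups. On chromosome 13 at 80883384 to 80896042 (plus strand), it had 38.9, 45.3 and 38.5 normalised counts in mTO-iTreg replicates 1, 2 and 3, against 9.84, 13.6 and 21.2 in TGFβ-iTreg replicates 1, 2 and 3. The day 0 libraries, at 35.1, 8.06 and 52.7 for replicates 1, 2 and 3, spanned both. The means of 40.9 ± 3.81 in mTO-iTreg and 14.9 ± 5.82 in TGFβ-iTreg cells differed 2.75-fold (log2 difference 1.46, SE 0.64), and all mTO-iTreg libraries lay above all TGFβ-iTreg libraries for 25.9% of all genes tested, with the reverse for 18.7%. The difference passed the threshold under 2 of the 22 settings, the fit of these 2 groups alone and the fit without day 0 replicate 2. The day 0 mean was 31.97 ± 22.5, and neither iTreg group differed from it beyond its spread.

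The promoter of Arrdc2 is shown because it, like that of Txnip, holds a pair of CACG half-sites in the same direction with 7 bases between them, here at -143 to -129 (chr8:70839849-70839863). The Arrdc2 transcript was too weakly read to relate its level to the pair. The sequence covers chr8:70839721-70839970 on the minus strand, with the pair in capitals.
Arrdc2: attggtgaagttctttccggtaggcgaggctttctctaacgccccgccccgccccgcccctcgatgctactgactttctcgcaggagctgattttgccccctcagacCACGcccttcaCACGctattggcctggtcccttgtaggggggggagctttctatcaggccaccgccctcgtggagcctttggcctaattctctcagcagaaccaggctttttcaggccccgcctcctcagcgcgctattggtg

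All promoter windows of the RefSeq table, from 250 bases before to 50 bases after a start, were searched on both strands for pairs of CACG half-sites at the spacing of 2 E-boxes 5 bases apart. Same-direction pairs (CACG, any 7 bases, CACG) were in 0.615% of 32851 windows. With pairs facing each other (CACG, any 9 bases, CGTG) or pointing apart (CGTG, any 5 bases, CACG) added, the share was 1.02% of windows and 1.20% of 27025 genes. Txnip and Arrdc2 were the 2 of the 7 genes with such a pair. A single CACGTG, which overlaps itself on the opposite strand, was in 7.15% of windows, and among the 7 genes in those of Arrdc4 and of Mlx, where it lies at -40 to -35. Neither motif was in the windows of Arrdc1 and Mlxip or at any of the 3 annotated starts of Arrdc3. A match describes letters, not binding, and elements outside these windows were not searched.

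**Figure D2:**
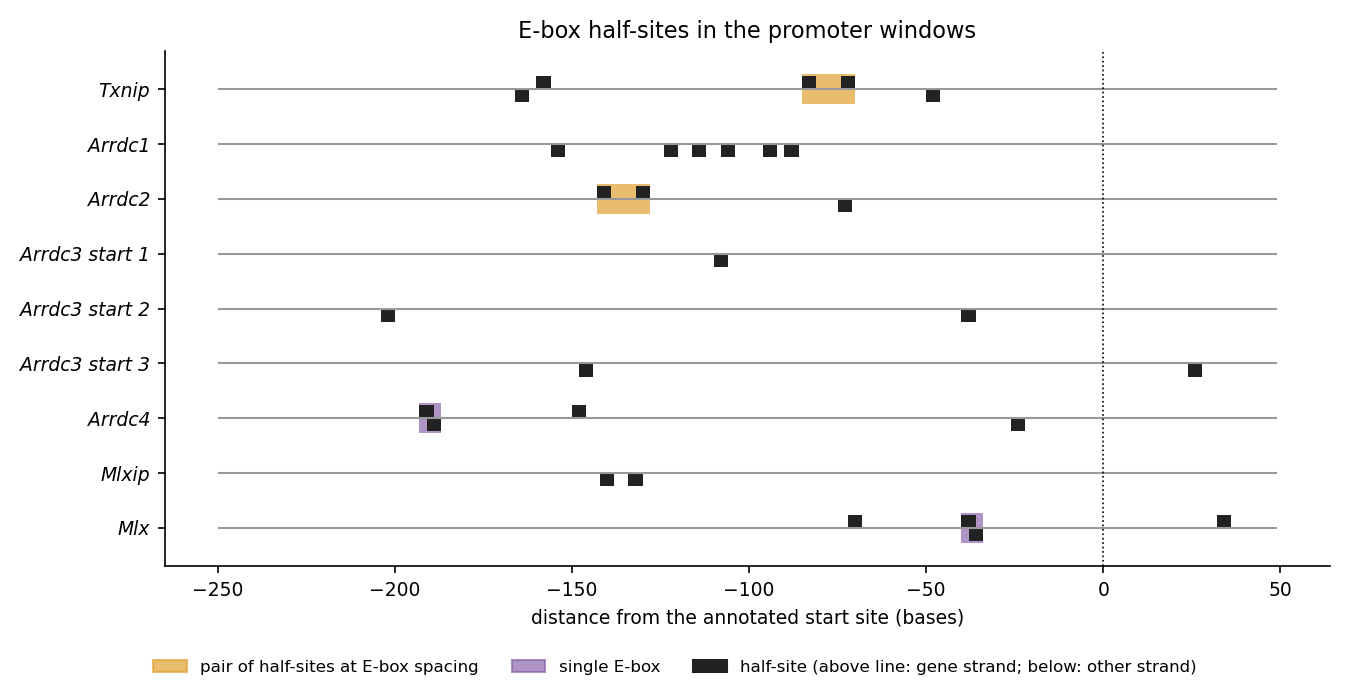
CACG half-sites (black marks, above the line on the gene's strand and below it on the other strand), pairs at E-box spacing (orange) and single E-boxes (purple) by distance from the annotated start, from 250 bases before to 50 bases after it. Pairs occur for Txnip at -85 to -71 and Arrdc2 at -143 to -129, and single E-boxes for Arrdc4 at -193 to -188 and Mlx at -40 to -35.

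Of the genes of the sensing factors, Mlxip was not higher in the iTreg cells, while Mlxipl was weakly read and counted only in mTO-iTreg libraries. Mlxip, which encodes the MondoA subunit that senses glucose phosphates, lies on chromosome 5 at 123394798 to 123457932 (plus strand). It had 100.3, 63.9 and 143 normalised counts in mTO-iTreg replicates 1, 2 and 3, 98.4, 113 and 100.3 in TGFβ-iTreg replicates 1, 2 and 3, and 111, 113 and 80.2 in day 0 replicates 1, 2 and 3. Its means of 102 ± 39.5 in mTO-iTreg, 104 ± 8.09 in TGFβ-iTreg and 101 ± 18.3 in day 0 cells were nearly level, with log2 differences of -0.09 to 0.05 (SE 0.32). The paralog Mlxipl, which encodes ChREBP, had 24 counts in all, at 0, 13.0 and 1.99 normalised counts in mTO-iTreg replicates 1, 2 and 3, and no count in any TGFβ-iTreg or day 0 library. It was too weak to be tested. Zero counts allow levels of up to 7.38, 2.03 and 1.48 normalised counts in TGFβ-iTreg replicates 1, 2 and 3 and 5.26, 8.06 and 3.17 on day 0.

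Mlx, the obligate partner of both factors, was lowest in mTO-iTreg cells. On chromosome 11 at 101087277 to 101092207 (plus strand), it had 241, 199 and 305 normalised counts in mTO-iTreg replicates 1, 2 and 3, 256, 412 and 325 in TGFβ-iTreg replicates 1, 2 and 3, and 465, 315 and 444 in day 0 replicates 1, 2 and 3. The mTO-iTreg libraries all lay below the day 0 libraries, by a small gap (305 against 315), as they did for 20.3% of all genes tested, while the TGFβ-iTreg libraries overlapped with both. The means were 248 ± 53.6 in mTO-iTreg, 331 ± 78.1 in TGFβ-iTreg and 408 ± 81.5 in day 0 cells, so the mTO-iTreg level was 0.61 times that of day 0 (log2 difference -0.72, SE 0.23). The middle group differed from neither neighbour beyond the spread, with log2 differences of -0.31 (SE 0.23) for TGFβ-iTreg against day 0 and -0.41 (SE 0.23) for mTO-iTreg against TGFβ-iTreg. The Mlx difference missed the threshold under 6 of 22 alternative settings, among them scaling to equal totals (-0.49) and leaving out mTO-iTreg replicate 1 or 2 or day 0 replicate 1 or 3.

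By the limma fit over all genes with a Benjamini-Hochberg threshold of 0.05, 3 of the 7 genes passed between mTO-iTreg and day 0 cells (Txnip and Arrdc4 higher, Mlx lower), where 33.9% of all genes tested passed (19.4% higher, 14.5% lower). Between TGFβ-iTreg and day 0 cells 2 of the 7 passed, Txnip and Arrdc4, both higher, where 18.6% of all genes did (9.78% higher, 8.80% lower), and all TGFβ-iTreg libraries lay below all day 0 libraries for 0 of the 7, against 17.8% of genes. Between mTO-iTreg and TGFβ-iTreg cells 0 of the 7 passed, where 26.6% of all genes did (14.9% higher, 11.8% lower); at an unadjusted p under 0.05 there were 2, both higher, and by limma-voom 1. The genes were chosen on these same contrasts and both day 0 contrasts use the same 3 day 0 libraries, so the counts describe the genes and are not read as evidence.

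**Figure D3:**
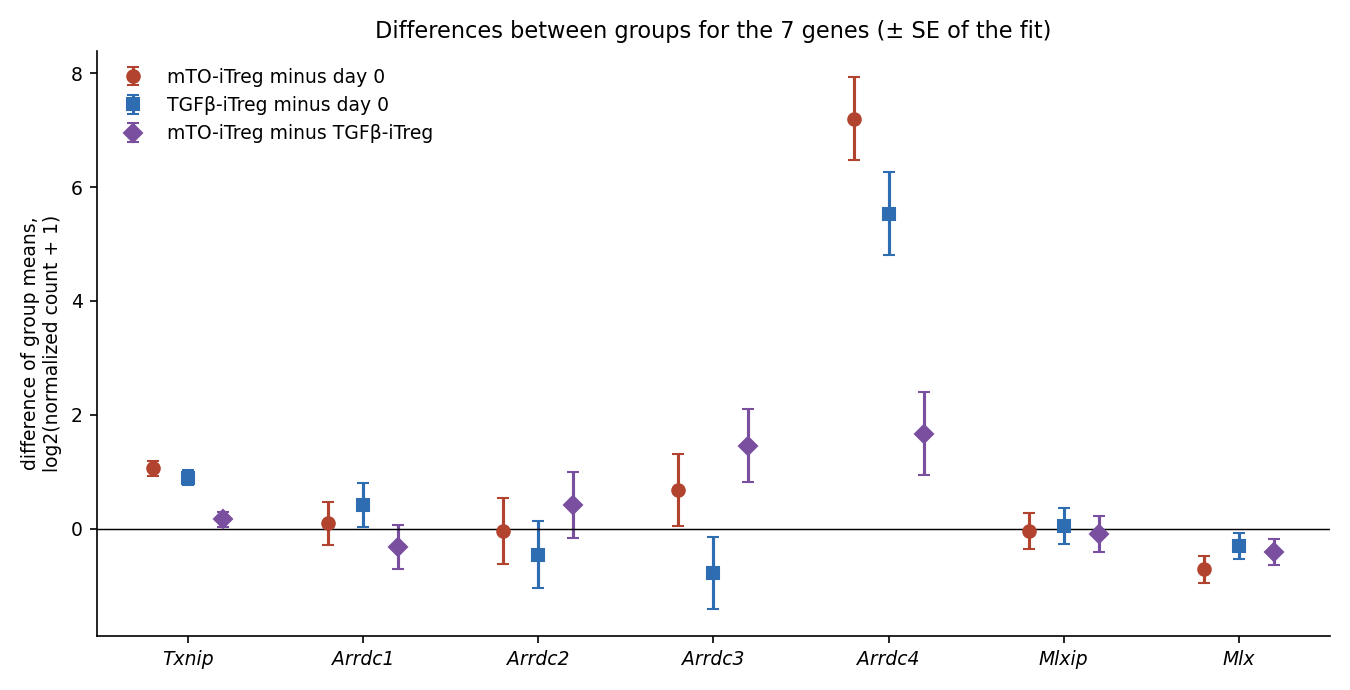
Log2 differences of the 7 genes on the log2(normalised count + 1) scale with the SE of the limma fit (3 libraries per group), for mTO-iTreg minus day 0, TGFβ-iTreg minus day 0 and mTO-iTreg minus TGFβ-iTreg. Arrdc4 (7.20 and 5.53) and Txnip (1.06 and 0.89) stand above 0 against day 0 in both iTreg groups, and Mlx stands below 0 (-0.72) in mTO-iTreg cells.

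Txnip and Arrdc4 followed each other across the 9 libraries, with a Pearson r of 0.92 between their log2(normalised count + 1) values. This was rank 111 among 8433 genes with a mean of at least 20, when ordered by their r with Txnip, and rank 136 when other genes were ordered by their r with Arrdc4. The 3 groups form separate clusters, so these r values mostly describe the step between groups and carry no test. The other 5 genes had r values with Txnip between -0.60 (Mlx) and 0.24 (Arrdc1). Within the mTO-iTreg group, the library with the most Txnip, replicate 3, also had the most Arrdc1, Arrdc4, Mlxip and Mlx, and replicate 2 the least of each. The same order of the 3 libraries was found for 17.0% of 8810 genes. In TGFβ-iTreg cells only Arrdc4 among the other 6 genes had the library order of Txnip, as did 18.1% of genes, and on day 0 0 of the 6 did, against 17.7% of genes.

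**Figure D4:**
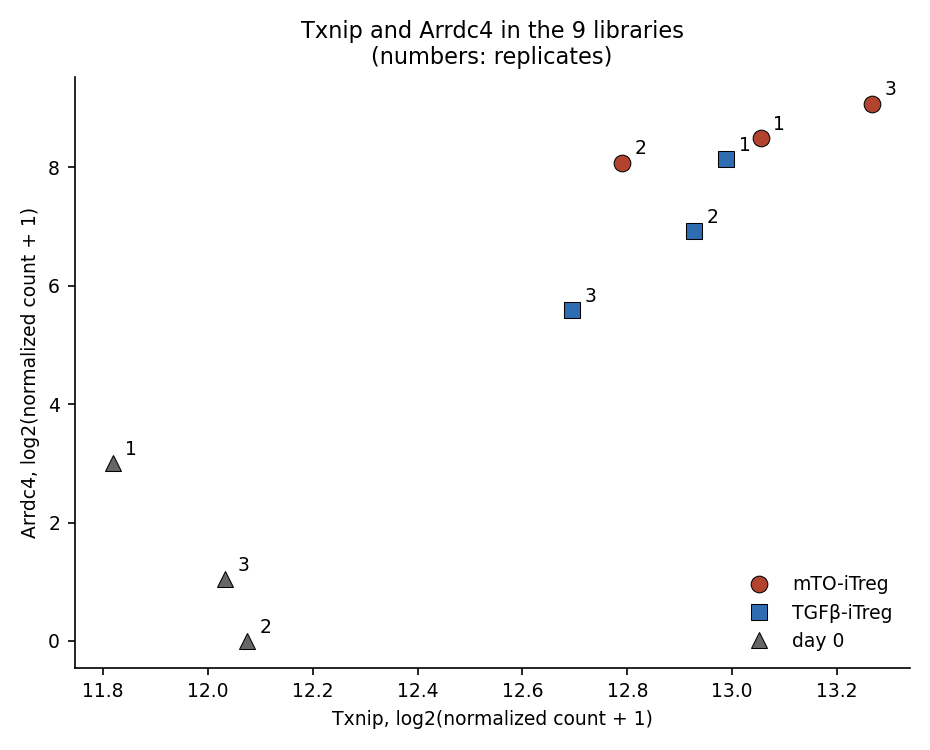
Arrdc4 against Txnip in the 9 libraries, both as log2(normalised count + 1), with mTO-iTreg as circles, TGFβ-iTreg as squares, day 0 as triangles and replicate numbers beside the points. The day 0 libraries lie apart at low values of both genes, and within the TGFβ-iTreg group both genes are highest in replicate 1 and lowest in replicate 3.

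The genes whose pattern was most like that of Txnip over the 9 libraries were Hdgf, a heparin-binding growth factor (r = 0.98), Top2a, the DNA topoisomerase of dividing cells (r = 0.98), Uba1, the ubiquitin-activating enzyme (r = 0.98), Ifngr1, a chain of the interferon-γ receptor (r = 0.97), and Dynll2, a dynein light chain (r = 0.97). Hdgf averaged 2174 ± 242 in mTO-iTreg, 1843 ± 32.5 in TGFβ-iTreg and 1100 ± 73.7 in day 0 cells, and Top2a 1004 ± 253 in mTO-iTreg, 504 ± 134 in TGFβ-iTreg and 77.6 ± 17.5 in day 0 cells. The genes most like Arrdc4 were Ndufb6, a subunit of respiratory complex I (r = 0.99), the replication genes Lig1 (r = 0.98) and Tipin (r = 0.98), the ribosomal protein gene Rpl24 (r = 0.98), whose reads could be shared with processed copies, and Insig1, a sterol-sensing regulator (r = 0.97). Lig1 averaged 290 ± 42.2 in mTO-iTreg, 214 ± 50.4 in TGFβ-iTreg and 37.9 ± 14.3 in day 0 cells.

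Genes around this pathway were then counted in 9 lists, for which limma's adjusted p over all genes is given. The lists too were put together with earlier results of these libraries known, so their counts and p-values describe these libraries and are not independent evidence. Over all genes tested, 19.4% rose and 14.5% fell in mTO-iTreg against day 0 cells, 9.78% rose and 8.80% fell in TGFβ-iTreg against day 0 cells, and 14.9% were higher and 11.8% lower in mTO-iTreg than in TGFβ-iTreg cells. These shares stand beside the counts of every list. Of 10 tested bHLH-zipper factors that share partners with Mlx or bind E-boxes, 4 rose and 1 fell in mTO-iTreg against day 0 cells, and 5 rose and 1 fell in TGFβ-iTreg against day 0 cells, with 2 higher and 2 lower in mTO-iTreg than in TGFβ-iTreg cells. The median log2 differences in these contrasts were 0.54, 0.90 and 0.42, beside 0.09, -0.02 and 0.13 over all genes tested; the medians of the lists below are given in the same order of contrasts. Mxd1, a Max partner that opposes Myc, had 646, 859 and 591 normalised counts in mTO-iTreg libraries, 307, 218 and 336 in TGFβ-iTreg libraries and 35.1, 78.0 and 96.0 on day 0. It was 10.0 times higher than on day 0 in mTO-iTreg cells (adjusted p = 4.5e-06) and 4.13 times in TGFβ-iTreg cells (adjusted p = 0.00054), with no overlap between any 2 groups. Its relative Mxi1 showed the same order, at 391 ± 47.8 in mTO-iTreg, 223 ± 31.5 in TGFβ-iTreg and 115 ± 21.8 in day 0 cells (adjusted p = 3.4e-05 and 0.0071 against day 0). Mxd3 rose to 50.1 ± 18.2 in mTO-iTreg and 37.0 ± 14.1 in TGFβ-iTreg cells, against 3.51 ± 3.04 on day 0 (adjusted p = 0.0012 and 0.0062).

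Myc and its obligate partner Max set the iTreg groups apart. Myc had 452, 586 and 415 normalised counts in mTO-iTreg libraries, 922, 898 and 700.1 in TGFβ-iTreg libraries and 395, 398 and 305 on day 0. It was 2.30 times higher in TGFβ-iTreg than in day 0 cells (adjusted p = 0.00056) and lower in mTO-iTreg than in TGFβ-iTreg cells (0.58 times, adjusted p = 0.0055). The 1.32-fold ratio of mTO-iTreg to day 0 cells did not pass (adjusted p = 0.11). Max moved in opposite directions against day 0, at 781 ± 60.2 in mTO-iTreg cells (0.61 times, adjusted p = 0.0023) and 2330.0 ± 373 in TGFβ-iTreg cells (1.81 times, adjusted p = 0.0015), with 1284 ± 177 on day 0.

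Known targets of ChREBP or MondoA other than Txnip and Arrdc4 made up a list of which 12 were tested. In mTO-iTreg against day 0 cells 6 rose and 2 fell (19.4% and 14.5% of all genes tested), and in TGFβ-iTreg against day 0 cells 5 rose and 0 fell (9.78% and 8.80%), with 0 lower at an unadjusted p under 0.05 and 0 by limma-voom. Between the iTreg groups 2 were higher and 3 lower in mTO-iTreg cells (14.9% and 11.8%). Medians were 0.67, 0.49 and -0.08 on the log2 scale. Klf10, a transcriptional repressor, was at 551, 545 and 596 normalised counts in mTO-iTreg libraries, 83.6, 48.2 and 56.8 in TGFβ-iTreg libraries and 68.4, 53.8 and 64.4 on day 0. That was 9.07 times day 0 in mTO-iTreg cells (adjusted p = 1.3e-06), and the difference between the iTreg groups passed as well (8.97 times, adjusted p = 3.1e-06). Rgs16, a regulator of G protein signalling, did the reverse, with 396, 578 and 344 in TGFβ-iTreg libraries against 21.1, 10.8 and 22.2 on day 0 (24.4 times, adjusted p = 2.1e-05). In mTO-iTreg cells its 35.1 ± 17.8 did not pass against day 0 (adjusted p = 0.18).

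Among the lipogenic targets, Scd1, a fatty acid desaturase, rose to 202 ± 89.4 in mTO-iTreg and 92.9 ± 46.3 in TGFβ-iTreg cells, against 14.2 ± 11.5 on day 0 (adjusted p = 9e-05 and 0.0027). The elongase Elovl6 rose in mTO-iTreg cells (186 ± 44.1 against 37.4 ± 25.9 on day 0, adjusted p = 0.0023). Acly, which makes cytosolic acetyl-CoA, was 0.72 times its day 0 level in mTO-iTreg cells (adjusted p = 0.011), and Fasn passed in none of the 3 contrasts. The pentose phosphate enzyme gene Tkt rose in both iTreg groups (2.24 times in mTO-iTreg and 2.43 times in TGFβ-iTreg cells, adjusted p = 0.00044 and 0.00054), and Tbc1d16, a Rab GTPase activator, fell in mTO-iTreg cells to 0.21 times day 0 (adjusted p = 0.00015).

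Among 7 tested glucose transporter and hexokinase genes, 3 rose in mTO-iTreg against day 0 cells, 2 rose in TGFβ-iTreg against day 0 cells, and 1 was higher in mTO-iTreg than in TGFβ-iTreg cells. None was called lower in any of the 3 contrasts by limma, 0 at an unadjusted p under 0.05 and 0 by limma-voom (medians 2.02, 0.58 and 0.03). The median of 2.02 is the value of a single weakly read gene, Slc2a6. It was not called and had 26 counts in mTO-iTreg and 1 in day 0 libraries. Slc2a1, which encodes the transporter GLUT1 whose endocytosis Txnip promotes, had 61.0 ± 20.1 normalised counts in mTO-iTreg, 74.6 ± 28.7 in TGFβ-iTreg and 58.2 ± 16.5 in day 0 cells. It passed in no contrast (adjusted p = 0.92 and 0.61 for mTO-iTreg and TGFβ-iTreg against day 0, and 0.65 between them). Slc2a3, which encodes GLUT3, had 295, 489 and 361 in mTO-iTreg libraries, 78.7, 73.2 and 73.1 in TGFβ-iTreg libraries and 86.0, 96.8 and 74.9 on day 0. It was 4.45 times higher than on day 0 (adjusted p = 2.7e-05) and 5.09 times higher than in TGFβ-iTreg cells (adjusted p = 2.2e-05). Hk2, the inducible hexokinase, was at 32.7, 67.6 and 26.6 in mTO-iTreg libraries, 44.3, 20.4 and 27.2 in TGFβ-iTreg libraries and 0, 0 and 29.5 on day 0. Its calls (adjusted p = 0.017 and 0.049) were lost under 6 and 16 of the 22 alternative settings, among them leaving out day 0 replicate 1 or 2 for both calls, mTO-iTreg replicate 2 for the first, and any iTreg library for the second.

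Of 16 tested genes of the thioredoxin system, 6 rose in mTO-iTreg and 3 in TGFβ-iTreg against day 0 cells, and 3 were lower in mTO-iTreg than in TGFβ-iTreg cells (medians 0.21, 0.42 and 0.04). None fell against day 0 by limma, 0 at an unadjusted p under 0.05 and 0 by limma-voom. By limma 0 were higher in mTO-iTreg than in TGFβ-iTreg cells, against 2 at an unadjusted p under 0.05 and 1 by limma-voom. Txn1, the thioredoxin that Txnip binds, had 3196, 2947 and 3412 normalised counts in mTO-iTreg libraries, 5104, 5018 and 5710.0 in TGFβ-iTreg libraries and 2668, 2083 and 2628 on day 0. It was 2.15 times day 0 in TGFβ-iTreg cells (adjusted p = 4.8e-05) and 1.30 times in mTO-iTreg cells (adjusted p = 0.027), and lower in mTO-iTreg than in TGFβ-iTreg cells (adjusted p = 0.00069). The mTO-iTreg call of Txn1 against day 0 was lost under 6 of the 22 settings, among them leaving out mTO-iTreg replicate 1 or 3 or day 0 replicate 2. Thioredoxin reductase 1 (Txnrd1) passed in no contrast, at 152 normalised counts in mTO-iTreg, 112 in TGFβ-iTreg and 134 in day 0 cells. The peroxiredoxin genes Prdx2 and Prdx4 rose in both iTreg groups, Prdx2 to 623 ± 80.7 in mTO-iTreg and 548 ± 47.6 in TGFβ-iTreg cells, against 282 ± 15.9 on day 0 (adjusted p = 9.5e-05 and 0.00090). Map3k5, the kinase ASK1 that thioredoxin holds inactive, was lower in mTO-iTreg than in TGFβ-iTreg cells (0.60 times, adjusted p = 0.038), a call lost under 7 of the 22 settings, among them leaving out mTO-iTreg replicate 1 or any TGFβ-iTreg library.

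Of 13 tested ubiquitin ligases and adaptors that work with alpha-arrestins, 3 rose and 3 fell against day 0 in mTO-iTreg cells, 1 rose in TGFβ-iTreg cells, and 2 were higher and 2 lower in mTO-iTreg than in TGFβ-iTreg cells (medians -0.02, 0.13 and 0.01). By limma 0 fell in TGFβ-iTreg cells, against 2 at an unadjusted p under 0.05 and 0 by limma-voom. Ndfip1, an adaptor that activates Nedd4-family ligases, had 688, 535 and 811 normalised counts in mTO-iTreg libraries, 327, 294 and 323 in TGFβ-iTreg libraries and 212, 215 and 188 on day 0 (3.31 times day 0 in mTO-iTreg cells, adjusted p = 1.2e-05, and 1.54 times in TGFβ-iTreg cells, adjusted p = 0.030). The TGFβ-iTreg call of Ndfip1 was lost under 8 of the 22 settings, among them leaving out any TGFβ-iTreg library or day 0 replicate 1 or 3. Nedd4 stood at 297, 506 and 979 in mTO-iTreg libraries, 51.7, 64.4 and 161 in TGFβ-iTreg libraries and 137, 223 and 331 on day 0. It was 6.44 times higher in mTO-iTreg than in TGFβ-iTreg cells without overlap (adjusted p = 0.00089), while day 0 overlapped with both. All mTO-iTreg libraries lay above all TGFβ-iTreg libraries for 25.9% of all genes tested. The mTO-iTreg call of Nedd4 against day 0 (adjusted p = 0.047) was lost under 11 of the 22 settings. Among them were leaving out mTO-iTreg replicate 2 or 3, TGFβ-iTreg replicate 2, or day 0 replicate 1 or 2. Itch, the ligase that is known to degrade Txnip, fell to 177 ± 33.3 in mTO-iTreg cells, against 359 ± 66.2 on day 0 (adjusted p = 0.0019), with 245 ± 19.3 in TGFβ-iTreg cells (adjusted p = 0.088 against day 0). Among 6 tested relatives with an arrestin fold, 0 rose in any contrast by limma (0 at an unadjusted p under 0.05 and 0 by limma-voom), and the β-arrestin genes Arrb2 and Arrb1 fell in mTO-iTreg against day 0 cells (medians -0.40, -0.26 and -0.12). Arrb2 was at 424 ± 154 in mTO-iTreg, 995 ± 121 in TGFβ-iTreg and 1141 ± 31.9 in day 0 cells (adjusted p = 9.2e-05 for mTO-iTreg against day 0). The Arrb1 call (adjusted p = 0.045) was lost under 13 of the 22 settings, among them leaving out mTO-iTreg replicate 1 or 3, TGFβ-iTreg replicate 2 or 3, or day 0 replicate 1 or 2.

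Signals known to act on Txnip were read through 3 further lists. Of 15 tested genes of AMPK and insulin-PI3K signalling, which act on the Txnip protein or its gene, 1 rose and 3 fell in mTO-iTreg cells and 1 rose and 1 fell in TGFβ-iTreg cells against day 0, and 0 were higher and 3 lower in mTO-iTreg than in TGFβ-iTreg cells (medians 0.07, -0.02 and 0.35). Where limma called 0 higher in mTO-iTreg than in TGFβ-iTreg cells, 3 were higher at an unadjusted p under 0.05 and 1 by limma-voom. Prkab1, an AMPK subunit, fell in mTO-iTreg against day 0 cells (0.51 times, adjusted p = 0.0070). Of 15 Foxo genes and targets, 3 rose and 6 fell in mTO-iTreg against day 0 cells, 4 rose and 2 fell in TGFβ-iTreg against day 0 cells, and 8 were lower and 1 higher in mTO-iTreg than in TGFβ-iTreg cells (medians -0.44, 0.06 and -0.55). Klf2, a factor of resting and recirculating T cells, fell to 817 ± 164 in mTO-iTreg cells, against 3434 ± 605 on day 0 (adjusted p = 9.6e-07), and was at 3287 ± 231 in TGFβ-iTreg cells (adjusted p = 0.87 against day 0). Gabarapl1, an autophagy gene, rose to 163 ± 25.1 in mTO-iTreg and 89.5 ± 23.6 in TGFβ-iTreg cells, against 7.42 ± 3.63 on day 0 (adjusted p = 4.7e-06 and 9e-05).

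Of 13 tested glucocorticoid-response genes, a list included because Txnip, Arrdc2 and Arrdc3 are also known as steroid-induced, 5 rose and 4 fell in mTO-iTreg cells and 4 rose and 3 fell in TGFβ-iTreg cells against day 0, and 3 were higher and 4 lower in mTO-iTreg than in TGFβ-iTreg cells (medians 0.54, 0.40 and 0.24). Tsc22d3, which encodes GILZ, fell to 251 ± 61.1 in mTO-iTreg cells, against 619 ± 67.8 on day 0 (adjusted p = 0.00018), and was at 824 ± 155 in TGFβ-iTreg cells (adjusted p = 0.18 against day 0). Klf9 rose to 128 ± 30.2 in mTO-iTreg and 88.2 ± 18.1 in TGFβ-iTreg cells, against 7.02 ± 8.04 on day 0 (adjusted p = 0.00035 and 0.0020). The receptor gene Nr3c1 was lower in TGFβ-iTreg than in day 0 cells (0.45 times, adjusted p = 0.0022). Some genes stand in 2 lists (Hk2, Irs2, Pik3ip1 and Il7r), so the lists are not independent of each other.

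Markers of other cells moved between the groups too, and their part in these results was not tested. Epithelial genes, 7 of 13 listed being in the table, summed to 43.7 to 125 normalised counts in mTO-iTreg libraries, 135 to 141 in TGFβ-iTreg libraries and 18.8 to 24.3 on day 0. In the iTreg libraries Epcam and Cdh1 made up most of this. They were at 21.1 to 89.0 and 9.31 to 20.6 in mTO-iTreg libraries. In TGFβ-iTreg libraries, cultured without organoids, they were at 74.1 to 112.6 and 25.1 to 52.9. Lgals4 was at 9.55, 9.925 and 9.96 in mTO-iTreg, 0, 3.39 and 0.494 in TGFβ-iTreg and 3.51, 0 and 11.6 in day 0 libraries. Cldn4 was at 0 in mTO-iTreg libraries, and at up to 11.86 in TGFβ-iTreg and 3.51 in day 0 libraries. Krt18 was at 4.65 in mTO-iTreg replicate 3, 1.75 in day 0 replicate 1 and 0 in all other libraries. Muc2 was at 0.664 in mTO-iTreg replicate 3 and 0 elsewhere. Vil1 was at 2.48 in mTO-iTreg replicate 2, 2.46 in TGFβ-iTreg replicate 1 and 0 elsewhere. Myeloid and antigen-presenting genes, 7 of 10 in the table, summed to 360 to 460 in mTO-iTreg libraries, 122 to 225 in TGFβ-iTreg libraries and 524 to 3733 on day 0, where replicate 3 had 2463 of H2-Ab1. Cd14 was at 0 in the mTO-iTreg and day 0 libraries. H2-Ab1 was at 229, 208 and 313 in mTO-iTreg, 88.6, 76.6 and 33.1 in TGFβ-iTreg and 588, 293 and 2463 in day 0 libraries. Cd74 was at 194, 150.1 and 122 in mTO-iTreg, 108, 122 and 78.1 in TGFβ-iTreg and 184, 121 and 869 in day 0 libraries. Fcer1g was at 57.9 to 230 and Tyrobp at 19.3 to 86.5 on day 0, against at most 8.87 and 4.09 in any iTreg library. Without day 0 replicate 3, the Txnip differences from day 0 were 1.09 in mTO-iTreg and 0.92 in TGFβ-iTreg cells on the log2 scale, and those of Arrdc4 were 7.05 in mTO-iTreg and 5.38 in TGFβ-iTreg cells. B cell genes summed to 61.1 to 104 in mTO-iTreg, 30.6 to 69.2 in TGFβ-iTreg and 10.5 to 57.0 in day 0 libraries. Of these, Cd79b was at 48.5 to 73.0 in mTO-iTreg, 4.45 to 14.9 in TGFβ-iTreg and 0 to 7.385 in day 0 libraries. Cd79a was at 11.3 to 28.65 in mTO-iTreg, 24.7 to 40.7 in TGFβ-iTreg and 5.26 to 26.4 in day 0 libraries. CD8 and NK cell genes summed to 97.7 to 134 in mTO-iTreg, 176 to 251 in TGFβ-iTreg and 349 to 633 in day 0 libraries.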

How the data were processed

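Per the labels' protocols, RNA of the sorted cells was sequenced in bulk by a modified CEL-Seq method, which reads transcript 3′ ends. Per the submitters' processing notes, BWA, DESeq2 and the mm10 build were used; their versions, the handling of strand and of reads that match several places, and the use of molecular identifiers are not stated there. The table the authors deposited gives 1 normalised count per gene and library, each library's raw counts having been divided by its own scaling factor. Dividing by the value of a single count gave whole numbers within 0.1 for 100% of values, and their sums are the depths given.

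The 10983 rows with at least 5 normalised counts in at least 3 of the 9 libraries were fitted as log2(value + 1) with limma 3.58.1 in R 4.3.3, with 3 group means, a variance trend and 6 residual degrees of freedom, and Benjamini-Hochberg adjustment at 0.05 over all rows. The fit was tested on simulated data. Summaries used pandas 2.3.3 and numpy 2.4.6 in Python 3.11.15, and plots matplotlib 3.10.9. Positions are from GENCODE M21 (GRCm38), and promoter sequences are from RefSeq (GRCm38.p6), which held all 7 genes. Count ratios have exact 95% intervals.

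The 7 genes, the 9 lists of 133 genes and the marker lists were chosen with earlier results of these data known. Named list genes were up to 4 called genes per list and contrast with the largest log2 difference and a group mean of at least 20, plus defining genes. One gene that this rule names is not reported here. Acly, Fasn and Slc2a6 were named after their values were seen. Likeness used genes with a mean of at least 20, without predicted genes and pseudogenes. Alternatives (19 planned, 3 added after seeing the data) changed pseudocount, filter, scaling, model or libraries. Protein sequences were not used here.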

Additional observations from a re-analysis of the deposited data

How the results depend on the processing

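Across 22 alternative settings, 450 of 459 log2 differences of the 7 genes moved by less than 1 residual SD and 9 moved further, and 0 of those past the threshold changed sign. The 7 genes were chosen with results of these libraries known, and every setting reuses these libraries. How often a gene passed below therefore describes the fits and is not evidence for the gene. The difference from day 0 of Txnip passed in all 22 for mTO-iTreg cells (0.95 to 1.29) and for TGFβ-iTreg cells (0.82 to 1.14); both upper ends (1.285 and 1.143) came from scaling to equal totals, which also moved the median of all genes from 0.09 to 0.31 and from -0.02 to 0.23 and the share of upward calls from 57.1% to 70.6% and from 52.6% to 75.5%. Under limma-voom run on whole counts recovered from the table (a setting chosen after seeing the data), 43.5% of the TGFβ-iTreg calls against day 0 were upward. Arrdc4 in TGFβ-iTreg against day 0 cells missed the threshold under limma-voom and passed in the other 21, and between the iTreg groups it passed in 6 of 22 (1.02 to 2.30). Arrdc3 passed between the iTreg groups in 2 of 22. The weakly read Arrdc2 had differences of -0.54 (quantile normalisation) to 0.50 (thinned to the smallest library) for mTO-iTreg against day 0.

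The number of genes called between TGFβ-iTreg and day 0 cells was 2040, against 1355 without a variance trend and 1166 without the shallowest libraries of both groups (day 0 replicate 2 and TGFβ-iTreg replicate 1). Leaving out 1 library at a time gave 2972 to 3744 calls for mTO-iTreg against day 0, 1402 to 2020 for TGFβ-iTreg against day 0 and 2149 to 3155 between the iTreg groups. Of 1188 counts of called list genes, 136 moved by over 1.5 times, and of 3483 results of named list genes, 180 lost and 35 gained a call and 0 reversed; the cause was not tested.

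Libraries with the same replicate number did not deviate together (r from -0.05 to 0.06 over 9 pairs, and 5 of 9 libraries were closest to their own number), so the numbers were not used as pairs. With a replicate block, 3670, 1938 and 2838 genes were called, against 3723, 2040 and 2924 without it. The planned edgeR and DESeq2 fits were not run; limma-voom on the recovered counts was run in their place. Arrdc2 rests on 61 counts in mTO-iTreg, 42 in TGFβ-iTreg and 27 in day 0 libraries, and the day 0 level of Arrdc4 on 5 counts.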
